A study of Mus musculus with 4 samples.

Results

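Wild-type cells of clusters 01, 05 and 06 in the authors' clustering, taken here as the less activated microglia of these brains, were compared between a cuprizone diet (library WT_12) and a control diet (library WT_untx). The rule took every cell of the 2 libraries that the authors assigned to 1 of these 3 clusters. It gave 319 cells in WT_12 and 383 in WT_untx, 702 of the 1336 cells of these libraries and of the 3023 cells of the series. By cluster these were 94, 103 and 122 cells in WT_12, against 111, 138 and 134 cells in WT_untx, for clusters 01, 05 and 06.

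Both groups were male Trem2 +/+ mice aged 12 to 14 months. WT_12 had 0.2% cuprizone in the diet for 12 weeks, and WT_untx had control diet for the same 12 weeks. Library Het_12 (Trem2 heterozygous knockout) and library KO_12 (Trem2 homozygous knockout), both on 0.2% cuprizone for 12 weeks, are given for levels only. From each hemibrain 30000 live CD11b+ CD45low cells were sorted, and 2 hemibrains were pooled into each library, so each group is 1 library in which the animals cannot be told apart. No difference below has a replicate check, no test was run, and every interval covers counting error only.

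Microglia are the macrophages that live in the brain. At rest they carry purine receptors such as P2RY12 and a set of genes maintained by TGF-beta signalling. Cuprizone, a copper chelator, kills oligodendrocytes and strips myelin, and microglia that clear myelin debris are known to raise genes of lipid handling such as Apoe, Lpl and Spp1 and to lower their resting genes. A separate reaction, to interferons, raises a family of antiviral genes. What the present comparison asks is how much of either change is seen in cells of these 3 clusters.

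The label of the cells was checked against levels in CPM, the UMIs (tagged molecules) of a gene per 1000000 UMIs of that library and cluster. All 13 microglia markers had at least 50 UMIs, and none passed 1.5-fold in either direction. Further disease-associated genes, a list that includes Gpnmb, Lgals3 and Igf1, summed to 214, 230.5 and 294 CPM in clusters 01, 05 and 06 of WT_12. The same sum was 532, 2805 and 321 CPM in clusters 02, 04 and 08 of WT_12. Homeostatic microglia genes summed to 99382, 104705 and 115468 CPM in clusters 01, 05 and 06 of WT_12, against 85547, 56446 and 91741 CPM in its clusters 02, 04 and 08. In WT_untx the disease-associated sums were 117, 122 and 131 CPM in clusters 01, 05 and 06, against 250, 2082 and 177 CPM in clusters 02, 04 and 08. The homeostatic sums there were 105407, 111971 and 128791 CPM, against 99217, 76629 and 111434 CPM. Among these 6 clusters, clusters 01, 05 and 06 were thus lowest in the disease-associated sum in both libraries. The gap to cluster 08 was small: in WT_12 cluster 06 had 294 CPM and cluster 08 had 321 CPM, from 141 and 146 UMIs. In WT_untx the sum of cluster 08 rests on 15 UMIs in 13 cells. Clusters 01, 05 and 06 were highest in the homeostatic sum in WT_12, but in WT_untx cluster 08 lay above cluster 01 and beside cluster 05. Cluster 02, which the rule leaves out, is led by genes such as Cenpv and Zbtb18 that are not known as activation markers, and its gap to the 3 clusters was smaller than that of cluster 04. Less activated is therefore a matter of these sums and not of marker genes of the clusters. The 3 clusters also differ among themselves in 20 immediate early genes, which summed to 55954 CPM in cluster 01, 35239 CPM in cluster 05 and 9910 CPM in cluster 06 of WT_12. These genes are known to be switched on by tissue dissociation, and 2 of them, Jun and Ier5, are among the 10 leading genes of cluster 01.

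The cells of WT_12 held 1583780 UMIs (median 4171 per cell) and those of WT_untx 2028254 UMIs (median 4149 per cell). No barcode was shared between the members of the 2 libraries. For each gene the CPM of the 3 clusters were averaged with equal weight, so that the sizes of the clusters do not enter. A gene was called where the ratio of WT_12 to WT_untx was at least 1.5 or at most 1/1.5, its 95% counting interval excluded 1, and it had at least 50 UMIs over both libraries. Of 6390 genes with 50 UMIs, 131 (2.05%) were called higher and 130 (2.03%) lower, 4.08% in either direction. At least 2-fold were 37 and 46 of these. The median log2 ratio of all 6390 genes was -0.01, with 10% of genes below -0.40 and 10% above 0.36. In each of the 3 clusters 112 of the 131 and 116 of the 130 moved the same way. Counts of few UMIs carry most of these calls: of 2526 genes with at least 200 UMIs, 19 were called higher and 30 lower. Without gene models and pseudogenes these were 19 and 10. The abundant transcriptome was close to level. Of 249 genes with at least 2000 UMIs, 245 lay within 1.5-fold, and the 4 called were Apoe, which was higher, and Klf2 with 2 pseudogenes, which were lower. Values just outside the limit were those of Tor3a and Gatm (1.45) and Mboat7 (1.49), and just inside it those of Anp32b (1.52), Smagp (1.54) and Ccrl2 (1.56).

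Membership itself rests on expression. The authors marked 4895 genes as analysed in their clustering, and these make up 47.3% of the genes called higher, 39.2% of those called lower and 39.9% of all genes with 50 UMIs. Spp1, Lpl, Gpnmb and Itgax are among the 10 leading genes of cluster 04 and Ifit3, Ifit1, Ifit3b and Irf7 among those of cluster 08, so a cell rich in them could have been placed there and not among the members. Arrdc3 passed the naming rule too, but it is a leading gene of cluster 01 and is not given as a result.

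Resting genes were near level. Of 21 measured homeostatic genes 0 were called higher and 1 lower, with a median log2 ratio of -0.06 beside -0.01 for all genes; 3 of the 21 lay above 0. P2ry12, the purine receptor that steers microglial processes, stood at 3907 CPM in WT_12 and 3995 CPM in WT_untx, a ratio of 0.98 (0.94 to 1.01). Tmem119, a membrane protein used to mark microglia, had a ratio of 1.07 (1.02 to 1.12). Cx3cr1, the fractalkine receptor, had 1895 CPM in WT_12 and 2180 CPM in WT_untx, a ratio of 0.87 (0.83 to 0.91). Cst3, which encodes the secreted protease inhibitor cystatin C, had a ratio of 0.90 (0.89 to 0.91). These ratios lie within 1.5-fold although some of their counting intervals exclude 1. The 17 measured microglia transcription factors and TGF-beta signalling genes had a median of -0.12 with 0 called, among them Maf at 0.70 (0.60 to 0.81).

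The called homeostatic gene was Klf2, a zinc-finger factor known to restrain inflammatory activation of myeloid cells. It stood at 1273 CPM in WT_12 (1213 to 1336) and 1989 CPM in WT_untx (1922 to 2059), 1.56-fold lower (1.47 to 1.66). By cluster it had 2156, 1342 and 321 CPM in WT_12, against 2786, 2356 and 826 CPM in WT_untx, so it was lower in all 3 clusters and by most in cluster 06. The related factor Klf4 was 1.69-fold lower (1.34 to 2.15), at 85.8 CPM in WT_12 and 145 CPM in WT_untx. After each cell was thinned to 2642 UMIs, 54.4% of WT_12 cells and 75.4% of WT_untx cells had a Klf2 UMI. In cluster 07 of the same libraries, which is led by genes of macrophages at the brain's borders, the shares were 74.4% and 86.8%. Klf2 sits at the limit: its log2 ratio of -0.64 became -0.53 with thinned cells, -0.56 without the deepest 5% of cells, -0.54 without cluster 05 and -0.56 without cluster 06. Klf4 became -0.53 with thinned cells and -0.44 without cluster 05.

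Klf2, Klf4 and Fosb were the called members of the immediate early and dissociation list, with 0 of 20 higher and 3 lower at a median of -0.04. Over all genes 2.05% were called higher and 2.03% lower. In the list 0 were called with thinned cells or without cluster 05. Fosb, a subunit of the AP-1 factor, was 1.51-fold lower (1.24 to 1.84), and 6 alternatives put it under the limit, down to a log2 ratio of -0.41 with thinned cells. The best measured members did not pass: Fos had a ratio of 0.93 (0.89 to 0.96), Junb 1.17 (1.13 to 1.21), Btg2 1.20 (1.15 to 1.26) and Dusp1 1.06 (1.01 to 1.11). The 20 genes summed to 33701 CPM in WT_12 and 32661 CPM in WT_untx. Of 9 heat shock chaperones 1 fell, Dnajb1, a partner of HSP70, at 91.3 CPM in WT_12 and 156 CPM in WT_untx (1.71-fold lower, 1.37 to 2.15).

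Apoe, the main lipoprotein component made in the brain, was the abundant gene that rose. It lies on chromosome 7 (19696109 to 19699188, minus strand, build GRCm38, ENSMUSG00000002985). Its level was 5334 CPM in WT_12 (5215 to 5455) and 2332 CPM in WT_untx (2260 to 2406), a ratio of 2.29 (2.20 to 2.38). By cluster it had 5596, 5941 and 4466 CPM in WT_12, against 2197, 2445 and 2355 CPM in WT_untx. The 3 clusters of WT_12 lay above all 3 of WT_untx.

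Low and high cells alike had more Apoe in WT_12. In cells thinned to 2642 UMIs (294 cells of WT_12 and 338 of WT_untx; 25 and 45 shallower cells were left out) the median was 7 Apoe UMIs in WT_12 and 4 in WT_untx. The 10th percentile was 4 UMIs in WT_12 and 2 in WT_untx, and the 90th percentile 28.8 in WT_12 and 11 in WT_untx. The 11 cells of WT_12 with the most interferon response UMIs, described further on, held 2.12% of its Apoe UMIs.

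**Figure D1:**
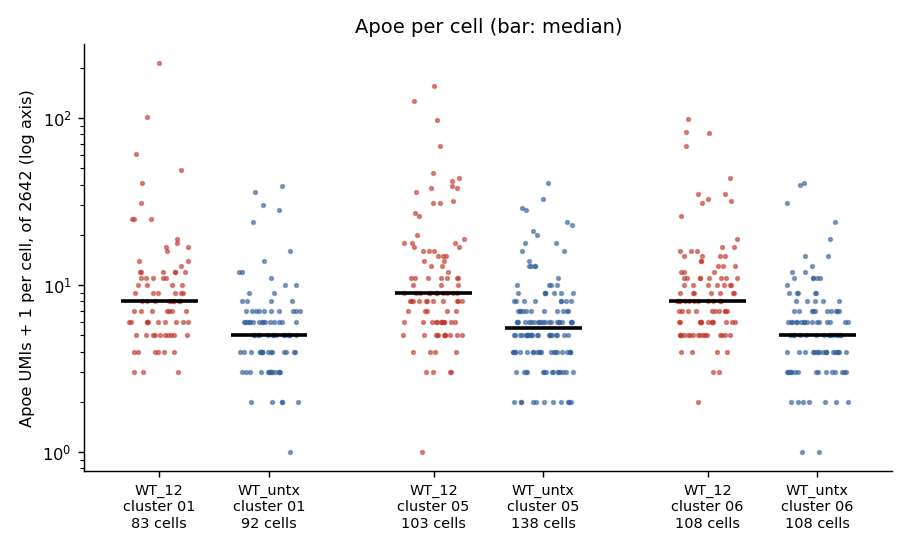
Apoe UMIs plus 1 per cell on a log axis, after thinning each cell to 2642 UMIs, for clusters 01, 05 and 06; each point is a cell of WT_12 (red) or WT_untx (blue) and the bar is the median. The medians are 7, 8 and 7 UMIs in WT_12 and 4, 4.5 and 4 UMIs in WT_untx, and the upper tail is longer in WT_12.

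Apoe was also higher in the libraries as wholes, and free RNA from broken cells enters every droplet. The members' level was 24.2% of the level over all cells of WT_12 and 24.8% of that over all cells of WT_untx. Cluster 03 is led by genes of other cells such as Elane, Prss34, Enpp2 and Ttr. Its cells were not alike in the 2 libraries, with the neutrophil marker S100a8 at 24161 CPM in WT_12 and 0 CPM in WT_untx. The thinned median in cluster 03 was 11 Apoe UMIs in 20 cells of WT_12 and 6 in 5 cells of WT_untx. Summed over all cells of cluster 03 the order was the opposite, with 5802 CPM in WT_12 and 7588 CPM in WT_untx. In cluster 07 the thinned median was 112 UMIs in WT_12 and 69 in WT_untx. The part of free RNA in the members' difference was not tested. In clusters 02, 04 and 08 Apoe stood at 27038 CPM in WT_12 and 16166 CPM in WT_untx, a ratio of 1.67 (1.62 to 1.73). The ratio there was smaller at a higher level, but its WT_untx side rests on 77, 6 and 13 cells, with equal weight for each cluster. The difference between the 2 sets of clusters was not tested. Of the 12 measured cholesterol transport genes and LXR targets Apoe alone was called, and the median of the list was -0.06.

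The other called genes of the disease-associated microglia program had low levels. Of 10 genes of the TREM2-independent stage 1 was called higher (Apoe; median 0.05). Of 15 measured genes of the TREM2-dependent stage 4 were called higher (Spp1, Lpl, Cst7 and Axl) and 0 lower, at a median of 0.16. The shares over all genes were 2.05% higher and 2.03% lower. Spp1, which encodes the secreted glycoprotein osteopontin, had 136 UMIs in WT_12 and 26 in WT_untx. Its level was 76.1 CPM in WT_12 (63.2 to 91.2) and 12.4 CPM in WT_untx (7.74 to 19.4), a ratio of 6.12 (3.79 to 10.2). By cluster it had 47.0, 117 and 64.6 CPM in WT_12, against 10.2, 13.3 and 13.9 CPM in WT_untx. In WT_12 1 cell held 32.4% of these UMIs. With the richest cell of each library removed, the Spp1 ratio was 4.80.

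Lpl, the lipoprotein lipase that releases fatty acids, stood at 55.8 CPM in WT_12 and 13.4 CPM in WT_untx, a ratio of 4.16 (2.63 to 6.64). Cst7, an inhibitor of lysosomal cathepsins, had 96.4 CPM in WT_12 (80.8 to 115) and 42.2 CPM in WT_untx (33.3 to 53.1), a ratio of 2.28 (1.71 to 3.06). It was higher in all 3 clusters, with 99.9, 85.1 and 104 CPM in WT_12, against 27.9, 53.1 and 45.6 CPM in WT_untx. Axl, a receptor for cells that expose phosphatidylserine, had a ratio of 1.71 (1.02 to 2.92) from 43 UMIs in WT_12 and 32 in WT_untx, and was not called under 6 alternatives. These were thinned cells, leaving out the top cell of each library, the 1% of cells with the most markers of other cells or the 5% with the most interferon UMIs, and leaving out cluster 05 or cluster 06 (log2 ratio 0.24). The abundant members of the same stage were close to level: Cd9, a tetraspanin, had a ratio of 1.12 (1.06 to 1.18), Ctsz one of 1.02 (0.98 to 1.07) and Ctsl one of 0.92 (0.86 to 0.98).

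The table holds 18 further disease-associated genes, of which 5 had 50 UMIs. Of these 5 genes, 2 were called higher at a median of 0.58, beside 2.05% of all genes called higher. Lgals3, a galectin of phagocytes, had 63 UMIs in WT_12 and 9 in WT_untx, a ratio of 7.78 (3.55 to 19.2). Cd72, a lectin-like coreceptor, had 42 UMIs in WT_12 and 19 in WT_untx, a ratio of 3.13 (1.67 to 6.07). With thinned cells or without cluster 05, 0 genes of the list were called. Below 50 UMIs, Gpnmb had 5 UMIs in WT_12 and 0 in WT_untx, Ch25h 9 and 0, and Igf1 14 and 4.

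Among thinned cells 13.6% in WT_12 and 2.96% in WT_untx had an Spp1 UMI, and 5.78% in WT_12 and 0.592% in WT_untx a Lgals3 UMI. Shares in clusters led by genes of other cells were no lower. In cluster 03, 30.0% of 20 WT_12 cells had an Spp1 UMI and 40.0% a Lgals3 UMI, and in cluster 07 these shares were 19.2% and 11.5% of 78 WT_12 cells. In cluster 07 Spp1 stood at 126 CPM in WT_12 and 20.3 CPM in WT_untx, and Lgals3 at 86.8 and 44.4 CPM. In cluster 03 Spp1 stood at 75.4 CPM in WT_12 and 0 CPM in WT_untx, and Lgals3 at 205 and 183 CPM. Cluster 03 of WT_untx holds 7 cells. Both genes were thus higher in WT_12 in these clusters too. The members' shares of Spp1 and Lgals3 did not exceed those of clusters 03 and 07 in WT_12. How much of them is expression by the members and how much free RNA was not tested. Whether the cells of clusters 03 and 07 make these transcripts themselves was not tested. Cst7 had a UMI in 17% of members of WT_12 and 7.69% of members of WT_untx. In cluster 03 of WT_12 it was found in 0 of 20 thinned cells (exact interval up to 16.8%), with 3 UMIs before thinning. In cluster 07 Cst7 had a UMI in 16.7% of WT_12 cells and 10.8% of WT_untx cells. Its level in WT_12 was 97.7 CPM in cluster 07 and 96.4 CPM in the members, so these were level. In WT_untx it was 48.1 CPM in cluster 07 and 42.2 CPM in the members, so Cst7 was higher in WT_12 in both. Lpl had a UMI in 8.50% of members of WT_12 and 3.55% of those of WT_untx, in 0 of 20 cells of cluster 03 and in 7.69% of cells of cluster 07 of WT_12. The median depth before thinning was 4171 UMIs in the members, 7612 in cluster 03 and 6324 in cluster 07 of WT_12.

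TREM2 and its signalling partners were not called (0 of 11, median -0.03). Trem2 stood at 2913 CPM in WT_12 (2826 to 3003) and 3280 CPM in WT_untx (3194 to 3368), a ratio of 0.89 (0.85 to 0.92), and its adaptor Tyrobp had a ratio of 0.98 (0.94 to 1.01). No gene was called among 23 of the lysosomal membrane and proton pump (median -0.02), 7 of complement (median -0.04), 6 of cholesterol synthesis (median 0.12), 14 of glycolysis (median 0.07) or 21 of copper handling and antioxidant defence (median -0.02). The copper chaperone Cox17 had a ratio of 1.06 (0.89 to 1.27) and the metallothionein Mt1 one of 1.02 (0.89 to 1.17). Of 8 genes of fatty acid handling and lipid droplets Lpl alone was called, and of 14 cathepsins and cystatins Cst7 alone. Of 10 galectins, annexins and S100 genes Lgals3 alone was called, with a median of 0.39 and all 10 above 0, and of 16 phagocytosis receptors Axl alone (median -0.07). Of 12 mitochondrially encoded transcripts 1 was called lower, mt-Atp8, a short subunit of ATP synthase, at 0.64 (0.42 to 0.98), which was not called under 4 alternatives, with -0.48 on the log2 scale without cluster 06. No gene was called among 29 nuclear genes of the respiratory chain (median 0.08), 8 of purinergic signalling (0.04) or 7 of iron storage (0.09).

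**Figure D2:**
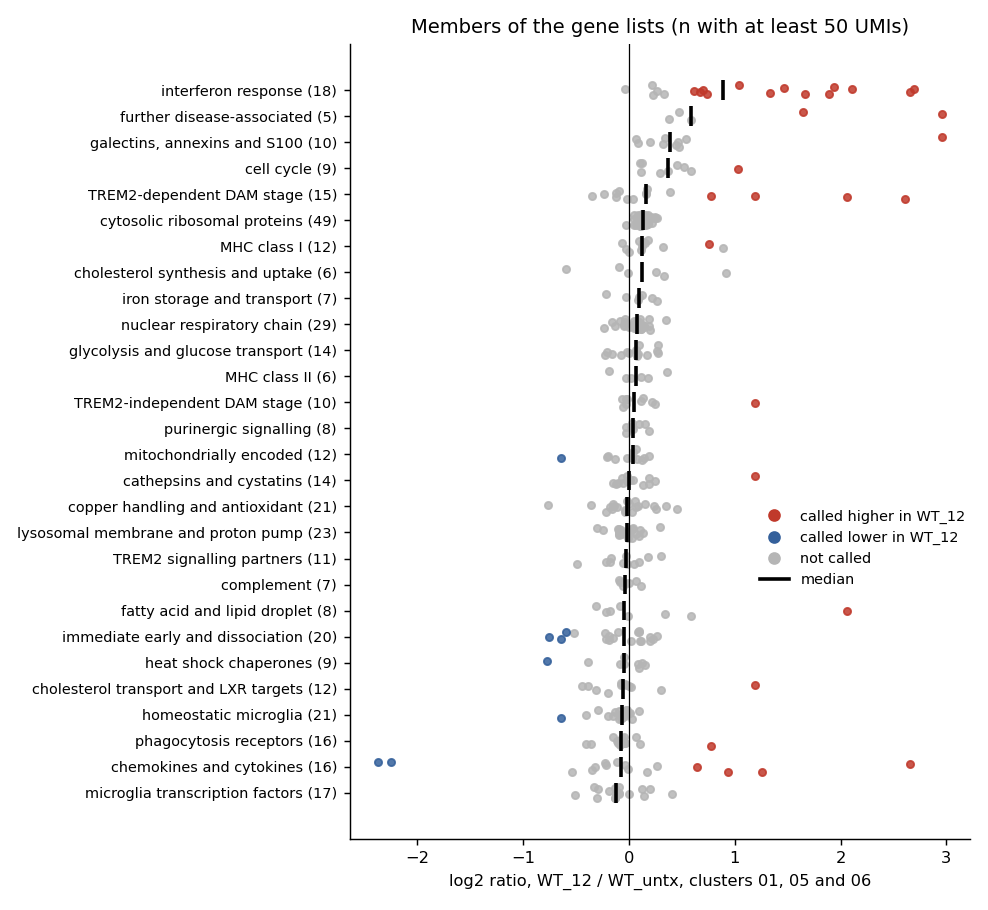
log2 ratio of WT_12 to WT_untx in clusters 01, 05 and 06 for each member with at least 50 UMIs of 28 gene lists (their number in brackets); red points were called higher, blue points lower, grey points were not called, and the black bar is the list's median. The interferon response stands apart with 13 of 18 members called higher and a median of 0.89; further disease-associated genes (0.58), galectins, annexins and S100 genes (0.39) and cell cycle genes (0.37) follow, and the other lists lie between -0.12 and 0.16.

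The interferon response was the list with the highest median. Of 27 genes listed 18 had 50 UMIs. Of these, 13 were called higher and 0 lower, beside 2.05% and 2.03% of all genes. Their median log2 ratio was 0.89, beside -0.01 for all genes. In the 9 members under 50 UMIs, 147 UMIs were counted in WT_12 and 89 in WT_untx, and 8 of the 9 were higher in WT_12. The abundant members Ly6e and Bst2 were not called. Ly6e had 1052 CPM in WT_12 and 1079 CPM in WT_untx, and Bst2 had 230 CPM in WT_12 and 197 CPM in WT_untx.

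Promoters of 3 of the called genes are shown because the list was assembled on a shared response and its best known DNA element can be read in them. Each is the window from 250 bases before to 50 bases after the RefSeq start site (GRCm38.p6), 5′ to 3′ on the strand of the gene. Where a gene has several windows, the one with the most matches is shown, and a match in any window counts for the gene. Capitals mark the core of the interferon-stimulated response element, GAAA and a second GAAA with any 2 bases between them, or its reverse complement, TTTC and a second TTTC spaced likewise. Overlapping matches run together. Cxcl10 lies at chr5:92348840-92349139 on the minus strand, Ifit3 at chr19:34583279-34583578 on the plus strand and Isg15 at chr4:156200769-156201068 on the minus strand.
Cxcl10: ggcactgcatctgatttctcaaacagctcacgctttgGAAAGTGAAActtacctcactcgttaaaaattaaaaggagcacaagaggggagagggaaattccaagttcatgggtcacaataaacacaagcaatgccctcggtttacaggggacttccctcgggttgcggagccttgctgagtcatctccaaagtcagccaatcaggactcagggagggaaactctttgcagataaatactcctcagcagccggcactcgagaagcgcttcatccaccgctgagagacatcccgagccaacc
Ifit3: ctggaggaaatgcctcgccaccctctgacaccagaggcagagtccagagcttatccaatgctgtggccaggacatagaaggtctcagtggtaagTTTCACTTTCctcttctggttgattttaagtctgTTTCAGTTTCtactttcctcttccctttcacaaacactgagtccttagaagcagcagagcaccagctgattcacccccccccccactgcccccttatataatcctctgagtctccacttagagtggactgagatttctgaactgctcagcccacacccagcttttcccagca
Isg15: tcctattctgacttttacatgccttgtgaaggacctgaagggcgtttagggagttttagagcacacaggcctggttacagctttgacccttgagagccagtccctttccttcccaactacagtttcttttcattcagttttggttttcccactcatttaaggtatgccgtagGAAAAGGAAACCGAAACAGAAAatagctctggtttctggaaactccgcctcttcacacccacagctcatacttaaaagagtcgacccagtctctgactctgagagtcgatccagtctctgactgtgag
A match was present in 5 of the 8 called interferon genes that have a window (62.5%), but not in Irf7, Slfn2 and Xaf1. It was present in 9 of 13 members that were not called or had under 50 UMIs (69.2%). It was present in 205 of 5109 genes with 50 UMIs and a window (4.01%), and in 5 of 98 genes called higher outside the list (5.10%). Over all 32851 windows the share was 3.44%. A match describes these letters and not a bound site.

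Ifit3, which binds viral RNA together with its relatives, had 97 UMIs in WT_12 and 23 in WT_untx. Its level was 70.2 CPM in WT_12 (56.3 to 86.7) and 10.8 CPM in WT_untx (6.48 to 17.4), a ratio of 6.49 (3.85 to 11.3). By cluster it had 112, 40.6 and 58.4 CPM in WT_12, against 10.2, 12.4 and 9.90 CPM in WT_untx, so it was higher in all 3. Isg15, a ubiquitin-like modifier, had a ratio of 3.83 (2.53 to 5.83). Irf7, a factor that sustains interferon production, had one of 4.30 (2.31 to 8.22). Ifitm3, a membrane protein that blocks viral entry, had 174 CPM in WT_12 (152 to 198) and 68.8 CPM in WT_untx (57.1 to 82.7), a ratio of 2.52 (2.02 to 3.17). Ifi27l2a was 1.62-fold higher (1.30 to 2.02). For Ifitm3, 17.7% of thinned members of WT_12 and 14.2% of those of WT_untx had a UMI, against 55% of 20 cells of cluster 03 of WT_12, so these shares lie below those of other cells.

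Much of this difference lay in a few cells. UMIs of the 27 genes were summed in cells thinned to 2642 UMIs. The median was 4, 4 and 5 UMIs per cell in clusters 01, 05 and 06 of WT_12 and 4, 4 and 4 in WT_untx. The highest cell had 102, 36 and 65 UMIs in these clusters of WT_12 and 17, 16 and 19 in WT_untx. In WT_12 11 of 294 cells lay above the highest WT_untx cell (19 UMIs), 4 in cluster 01, 3 in cluster 05 and 4 in cluster 06. Just below that, from 15 to 19 UMIs, lay 5 cells of each library.

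The 11 cells held 3.33% of all UMIs of the members of WT_12 and 2.41% of those of P2ry12. They were chosen by interferon UMIs, so their high shares of such genes follow in part from the choice. They held 20.5% of the UMIs of the 27 genes together. By gene they held 64.9% of the Ifit3 UMIs, 62.8% of Isg15, 60.4% of Irf7, 80.5% of Cxcl10, 33.3% of Oas1a and 31.5% of Ifitm3. When the 5% of cells with the most interferon UMIs were left out of each library and cluster (16 cells of WT_12 and 20 of WT_untx), 4 of 18 members were called higher and the median was 0.49. Ifit3 then had a log2 ratio of 1.06, against 2.70 with all cells. Without cluster 01 6 of 18 members were called, without cluster 05 8 and without cluster 06 9, at medians of 0.61, 1.02 and 0.88.

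**Figure D3:**
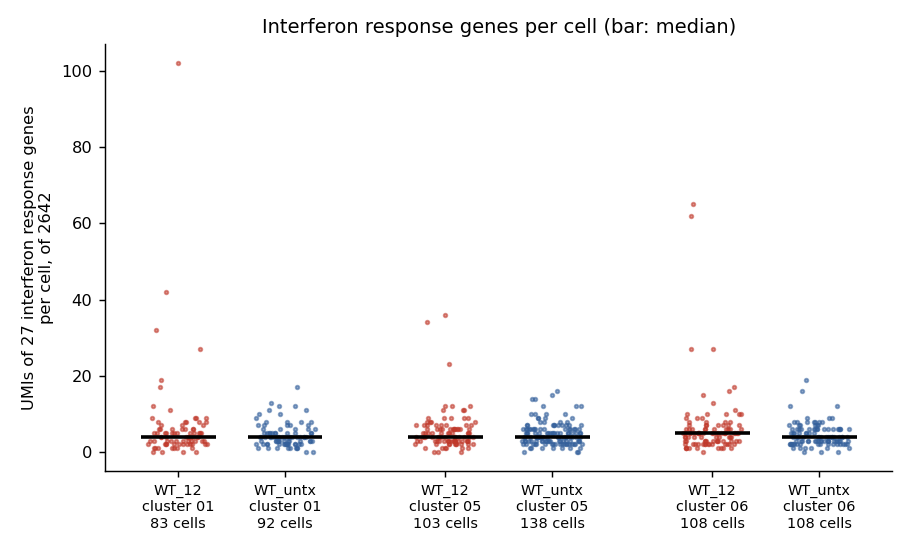
Summed UMIs of 27 interferon response genes per cell after thinning to 2642 UMIs, for clusters 01, 05 and 06; each point is a cell of WT_12 (red) or WT_untx (blue) and the bar is the median. The medians are 4 or 5 UMIs in every group, and 11 cells of WT_12 lie above the highest WT_untx cell at 19 UMIs.

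In clusters 02, 04 and 08 of the same libraries 4 of 26 measured interferon genes were called higher and 1 lower, where 1.03% of all genes were called higher and 2.77% lower. There MHC class II genes were called higher in 4 of 6, while in clusters 01, 05 and 06 0 of the same 6 were called (median 0.07; H2-DMa 1.08, 0.97 to 1.21). The WT_untx side of that comparison rests on 77, 6 and 13 cells, and the difference between the cluster sets was not tested. Of 12 MHC class I genes 1 was called, the peptide transporter Tap1 at 1.69 (1.12 to 2.55), which was not called under 4 alternatives. Its log2 ratio was 0.76, and 0.65 with thinned cells, 0.50 without the deepest 5% of cells, 0.34 without the 5% of cells with the most interferon UMIs and 0.32 without cluster 01. The MHC class I light chain B2m had a ratio of 1.10 (1.06 to 1.13).

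Chemokines and cytokines moved in both directions. Of 16 measured genes of this list 4 were called higher (Ccl12, Cxcl10, Tnf and the receptor gene Ccrl2) and 2 lower (Ccl2 and Ccl7). The median was -0.08, and 2.05% and 2.03% of all genes were called higher and lower. Cxcl10 is also among the 13 called interferon genes. Without the 5% of cells with the most interferon UMIs, 0 were called higher and 3 lower. Ccl2, the attractant of CCR2+ monocytes, had 61 UMIs in WT_12 and 316 in WT_untx. Its level was 40.6 CPM in WT_12 (30.5 to 53.4) and 194 CPM in WT_untx (171 to 218), 4.77-fold lower (3.53 to 6.51). By cluster it had 64.6, 40.6 and 16.7 CPM in WT_12, against 399, 107 and 75.2 CPM in WT_untx, lower in all 3. The top cell held 29.5% of the UMIs in WT_12 and 26.3% in WT_untx, and without these cells Ccl2 was 3.79-fold lower. A UMI was found in 6.12% of thinned members of WT_12 and 11.5% of those of WT_untx, against 28.2% and 45.8% in cluster 07 and 0 of 20 and 0 of 5 cells in cluster 03. The members' shares are thus below those of the macrophage genes' cluster in the same library, and the part of free RNA was not tested. By summed level the order in cluster 07 was the opposite of its shares, with Ccl2 at 617 CPM in WT_12 and 434 CPM in WT_untx.

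Ccl7, a chemokine gene next to Ccl2, was called lower from 16 UMIs in WT_12 and 72 in WT_untx, but 1 WT_untx cell held 55.6% of its UMIs and without the top cells the ratio was 0.54, in place of 0.19. Ccl12, a chemokine of mice from the same gene cluster on chromosome 11 (82101845 to 82103400; Ccl2 at 82035571 to 82037453), was called higher. It stood at 533 CPM in WT_12 (493 to 576) and 224 CPM in WT_untx (201 to 248), a ratio of 2.38 (2.09 to 2.72). By cluster it had 908, 240 and 452 CPM in WT_12, against 315, 213 and 143 CPM in WT_untx, so cluster 05 was near level at 1.12. The 11 cells rich in interferon transcripts held 50.5% of its UMIs, and without the 5% of cells with the most interferon UMIs its log2 ratio was 0.15 in place of 1.25.

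Tnf, an inflammatory cytokine, had 145 CPM in WT_12 (124 to 168) and 75.5 CPM in WT_untx (62.7 to 90.3), a ratio of 1.92 (1.51 to 2.43), with 2.41 in cluster 01, 1.39 in cluster 05 and 1.18 in cluster 06. Its log2 ratio was 0.94, and 0.45 without cluster 01 or 0.55 without the cells with the most interferon UMIs. Cxcl10, an interferon-induced attractant of T cells, had a ratio of 6.31 (3.93 to 10.2), but 1 cell held 56.3% of its UMIs in WT_12. Without the top cells its ratio was 2.72, in cluster 05 it was 0.74, and its direction turned without cluster 01 (log2 ratio -0.19) or without the cells with the most interferon UMIs (-0.44). The abundant chemokines Ccl3 and Ccl4 were within 1.5-fold, at 0.80 (0.75 to 0.84) and 0.86 (0.83 to 0.89), as was Il1b at 0.69 (0.55 to 0.86).

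**Figure D4:**
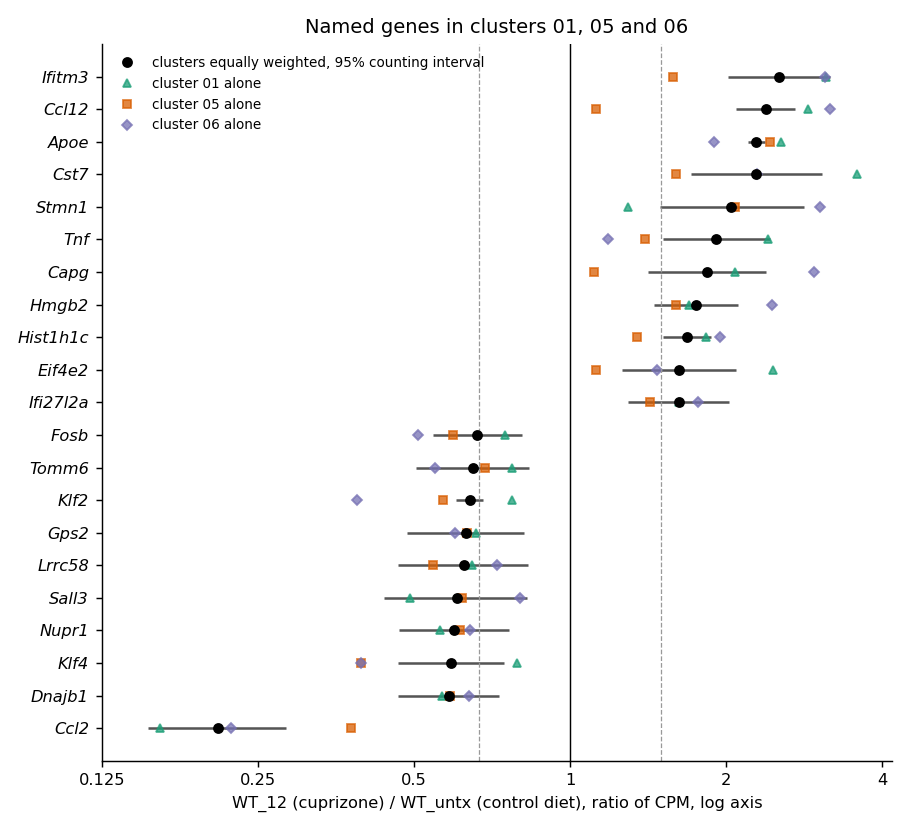
Ratio of WT_12 to WT_untx on a log axis for the named genes with at least 200 UMIs that moved the same way in clusters 01, 05 and 06; black points are the equally weighted ratios with their 95% counting intervals, coloured symbols the clusters alone, and dashed lines mark 1.5-fold. Apoe (2.29) has the narrowest interval among the genes that were higher, and Ccl2 (0.21) lies farthest from 1.

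Of the remaining named genes that were higher, Hist1h1c, a linker histone, stood at 647 CPM in WT_12 and 385 CPM in WT_untx, a ratio of 1.68 (1.51 to 1.87). Hmgb2, a chromatin protein abundant in dividing cells, had 209 CPM in WT_12 and 119 CPM in WT_untx (1.75, 1.45 to 2.11). Stmn1, a regulator of microtubules, had 77.6 CPM in WT_12 and 37.9 CPM in WT_untx (2.05, 1.49 to 2.83) and was the called member of 9 measured cell cycle genes, whose median was 0.37 and which all lay above 0. Markers of division were near absent, with 1 Mki67 UMI in WT_12 and 0 in WT_untx, and 14 Top2a UMIs in WT_12 and 1 in WT_untx. Stmn1 had a UMI in 35% of the 20 WT_12 cells of cluster 03, against 12.9% of members of WT_12 and 9.76% of those of WT_untx. The part of free RNA in its difference was not tested.

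Capg, which caps actin filaments, had a ratio of 1.83 (1.41 to 2.38), with a log2 ratio of 0.58 without cluster 06, and Eif4e2, a cap-binding translation factor, one of 1.62 (1.26 to 2.09), with a log2 ratio of 0.35 without cluster 01. Among genes that were lower, Nupr1, a stress-induced chromatin protein, stood at 75.5 CPM in WT_12 and 126 CPM in WT_untx (1.67-fold lower, 1.31 to 2.14). Gps2, a subunit of the NCoR corepressor complex, was 1.59-fold lower (1.23 to 2.07). The zinc-finger gene Sall3 was 1.66-fold lower (1.21 to 2.28), with a log2 ratio of -0.41 without the deepest 5% of cells. Lrrc58 was 1.60-fold lower (1.20 to 2.15) and Tomm6, a part of the mitochondrial import pore, 1.54-fold lower (1.20 to 1.98); Tomm6 was at -0.25 on the log2 scale with thinned cells. The 49 cytosolic ribosomal protein genes were shifted together by little, with a median of 0.13, 48 of 49 above 0 and 0 called.

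Transcripts of some other cells differed between the libraries. Neutrophil markers summed to 91 UMIs in WT_12 members and 2 in WT_untx members; S100a8, an abundant neutrophil alarmin, had 28 and 0, and stood at 24161 CPM in cluster 03 of WT_12. With 9 markers listed, 1 was at 0 in WT_12 and 7 in WT_untx. Erythrocyte markers summed to 32 UMIs in WT_12 and 0 in WT_untx, and monocyte markers to 24 in WT_12 and 14 in WT_untx. Markers of border-associated macrophages summed to 295 UMIs in WT_12 and 381 in WT_untx. Their summed levels were alike, at 177 CPM in WT_12 and 178 CPM in WT_untx. Of 4 measured oligodendrocyte markers Mbp, a protein of compact myelin, was called higher at 54.7 CPM in WT_12 and 21.6 CPM in WT_untx (2.53, 1.67 to 3.85). The call was lost without the 1% of cells with the most markers of other cells (4 cells of WT_12 and 3 of WT_untx) and without cluster 06. Mbp is itself among these markers, so the first loss follows in part from the choice of cells. Whether such RNA was free or inside the cells was not tested.

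Beside the other cuprizone libraries the genes fell into several patterns in the same 3 clusters. Apoe stood at 5334 CPM in WT_12, 7273 in Het_12, 5550 in KO_12 and 2332 in WT_untx, so all cuprizone libraries lay above the control diet. Cst7 likewise had 96.4, 92.4, 108 and 42.2 CPM in that order, and Ifit3 70.2, 44.5, 48.1 and 10.8 CPM. Spp1 differed, with 76.1 CPM in WT_12 and 74.97 in Het_12 but 5.58 in KO_12, beside 12.4 in WT_untx. Lpl had 55.8, 71.8, 10.3 and 13.4 CPM in WT_12, Het_12, KO_12 and WT_untx. Over all cells the Spp1 level was also lowest in KO_12, at 36.4 CPM, beside 1221 in WT_12, 1050 in Het_12 and 149 in WT_untx.

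Ccl2 was lower in each cuprizone library, at 40.6 CPM in WT_12, 50.6 in Het_12 and 94.9 in KO_12, against 194 in WT_untx. Ccl12 and Tnf were highest in WT_12: Ccl12 had 533 CPM in WT_12, 243 in Het_12, 203 in KO_12 and 224 in WT_untx, and Tnf 145, 78.1, 75.6 and 75.5 CPM in that order. Klf2 had 1273 CPM in WT_12 and 1283 in KO_12, but 1848 in Het_12 beside 1989 in WT_untx. P2ry12 was level in all 4, between 3900 and 4073 CPM. Trem2 followed the genotypes of the labels, with 2913 CPM in WT_12, 1664 in Het_12, 432 in KO_12 and 3280 in WT_untx. These comparisons share the WT_untx library and have 1 library each, so differences among the cuprizone libraries were not tested.

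**Figure D5:**
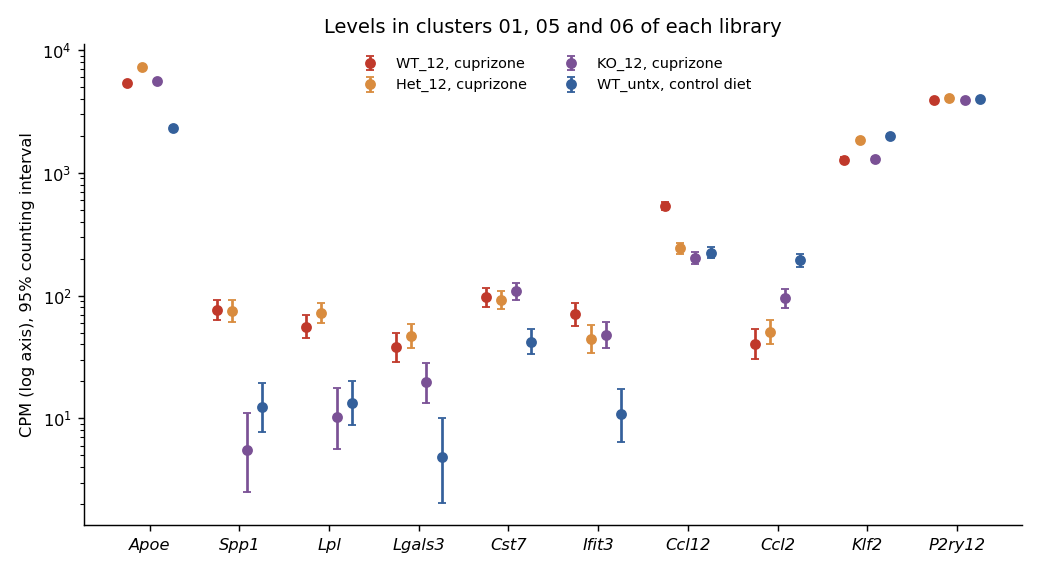
CPM on a log axis of 10 genes in clusters 01, 05 and 06, averaged with equal weight, in WT_12, Het_12, KO_12 and WT_untx; points are libraries and bars 95% counting intervals. Apoe is above the WT_untx value of 2332 CPM in the 3 cuprizone libraries, Spp1 and Lpl are at 5.58 and 10.3 CPM in KO_12, and P2ry12 is level.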

How the data were processed

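Single-cell 3′ RNA sequencing of sorted microglia was deposited by the authors as raw UMI counts, a whole number for every gene in every cell. The submitters' processing notes name Cell Ranger 2.1.1 and the mouse build mm10. Cells that failed quality checks had been removed, per the authors' notes in the files. The deposited table has 12800 genes, each with a UMI in at least 8 cells, and 3023 cells in 4 libraries. The authors' cell file assigns each cell to 1 of 8 clusters, and their gene file marks 4895 genes as analysed in the clustering, and the sources used here do not give its parameters.

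UMIs were summed per library and cluster and divided by the total (CPM, computed here from the deposited counts), and the CPM of clusters 01, 05 and 06 were averaged with equal weight. With 1 library a group no test was run. Intervals at 95% are gamma (Fay-Feuer) intervals for levels, combined on the log scale for ratios (MOVER), and exact binomial for shares; all cover counting error only, and UMIs of 1 cell are not independent. Calls need a ratio of 1.5, an interval without 1 and 50 UMIs. For shares and values per cell, 2642 UMIs were drawn from each cell (the members' 10th percentile of depth), and shallower cells were left out. Named are up to 12 genes a direction with 200 UMIs whose nearest interval bound lies farthest from 1, that move the same way in the 3 clusters and keep the call without the top cell of each library, then for each gene list the called members that are largest and most abundant, or the most abundant one. Other list members are given as examples chosen after their values were seen. Gene models and pseudogenes were counted, not named by this rule. The cells, gene lists and rules were chosen with earlier results of these data known. Scrublet (scanpy 1.11.5) marked 2 of 765 WT_12 cells (0.261%) and 0 of 571 WT_untx cells, none of them a member. Alternatives used scaling factors of edgeR 4.0.16 (TMM) and DESeq2 1.42.0 (median of ratios). The scripts were tested on simulated data. Python 3.11.15 and R 4.3.3 were used. Gene positions are from the GRCm38 annotation and promoters from RefSeq (GRCm38.p6); genes with no entry in the promoter table were not searched. Values of some single genes are not reported here.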

Additional observations from a re-analysis of the deposited data

Results flagged for a closer look

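Of the genes called in both sets of clusters, 2 were called in opposite directions, and neither difference was tested. Cxcl10 had a log2 ratio of WT_12 to WT_untx of 2.66 in clusters 01, 05 and 06 and of -0.74 in clusters 02, 04 and 08; 1 cell held 56.3% of its UMIs in WT_12 members. Birc2, which encodes an inhibitor of apoptosis, had a log2 ratio of 0.97 in clusters 01, 05 and 06 and of -1.17 in clusters 02, 04 and 08. The WT_untx side of clusters 04 and 08 holds 6 and 13 cells.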

How the results depend on the processing

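No paired analysis was possible because each group is 1 library. In clusters 01, 05 and 06, 131 genes were called higher and 130 lower. The counts were 19 and 30 with at least 200 UMIs, 217 and 199 with no minimum, and 37 and 46 with a 2-fold limit. The other alternatives kept them between 93 and 145 higher and between 92 and 185 lower, except that a minimum of 20 UMIs gave 183 higher. Which genes pass is less stable: with thinned cells 93 were called higher and 98 lower, of which 50 and 35 were among the genes called with all UMIs. In clusters 02, 04 and 08 the counts were 80 higher and 215 lower. They became 197 and 528 with UMIs pooled over the clusters, 180 and 97 with TMM scaling, and 131 and 131 with median-of-ratios scaling, and 49 were higher without cluster 04. In clusters 01, 05 and 06 no scaling moved the median log2 ratio of all genes beyond -0.01 to 0.00. Cxcl10 turned from 2.66 to -0.19 without cluster 01 and to -0.44 without the 5% of cells with the most interferon UMIs; no other named gene that was called changed its sign. Medians of lists that lie near 0 did so, such as that of fatty acid handling and lipid droplets (-0.04, and 0.35 without cluster 06), cholesterol transport (-0.06, and 0.04 without cluster 06), chemokines and cytokines (-0.08, and 0.05 without cluster 06) and heat shock chaperones (-0.04, and 0.05 without cluster 01). The causes were not tested. Leaving out those cells, and counting list members under each alternative, were chosen after seeing the data. Depth limits calls to genes with 50 UMIs: 6390 of 12800.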

Other observations

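Pseudogenes and unnamed gene models were often lower on cuprizone in these cells: of 181 with at least 50 UMIs 31 were called lower and 2 higher. Of all 6390 genes with 50 UMIs, 2.03% were called lower and 2.05% higher. Of 11 ribosomal protein pseudogenes 8 were called lower, at a median log2 ratio of -0.90. Their summed level was 1942 CPM in WT_12, 1676 in Het_12, 1852 in KO_12 and 3088 in WT_untx, while the listed ribosomal protein genes summed to 71629, 70172, 79609 and 65427 CPM in the same libraries. Reads of such copies and of their parent genes can be split by alignment, so these values are uncertain. The unnamed transcript AY036118 stood at 178 CPM in WT_12, 110 in Het_12, 104 in KO_12 and 369 in WT_untx. No cause was tested.

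Oligodendrocyte markers as a list summed to 1556 CPM in WT_12 members and 1433 CPM in WT_untx members, most of it Trf, the transferrin gene, at 1356 CPM in WT_12 and 1280 CPM in WT_untx. Mbp in the members was highest in WT_12, at 54.7 CPM, beside 21.7 in Het_12, 23.1 in KO_12 and 21.6 in WT_untx.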
